A study of Homo sapiens with 4 samples.

Results

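Transcription factor genes of the primitive streak were followed through blood differentiation of human embryonic stem cells. The 10 genes were T (brachyury, TBXT in newer annotations), EOMES, TBX6, MIXL1, GSC, LHX1, EVX1, MESP1, MESP2 and MSGN1, chosen by gene symbol for their role in the embryo, and all 10 were among the 17630 genes analysed. Messenger RNA had been sequenced from H1, an established human embryonic stem cell line, in 4 populations with 1 library each. These were undifferentiated H1 cells (hESC), APLNR+ mesoderm-stage cells (MES) sorted on day 2, CD31+CD34+ cells (HEP) sorted on day 4 and CD31+CD43+ cells (HPC) sorted on day 7. Differentiating cultures received 40 ng/ml activin A with 50 ng/ml BMP4 for 2 days, then 40 ng/ml VEGF with 50 ng/ml bFGF for 2 days, then that VEGF and bFGF again with the activin and NODAL receptor inhibitor SB-431542 for 3 days. MES cells had thus been through the first step, HEP cells through the first and second, and HPC cells through all 3. With 1 library per population there is no replicate error and no test, and every difference below is a difference between those libraries. All cells came from 1 line, and cells that failed the sort gates were not measured.

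The primitive streak is the furrow of the early embryo through which epiblast cells leave the epithelium to become mesoderm and endoderm. NODAL, WNT and BMP signals induce it, and activin and BMP4 are used in culture to stand in for the first and the last of these. Its transcription factors fall into 3 DNA-binding classes. T, EOMES and TBX6 bind DNA through a T-box, MIXL1, GSC, LHX1 and EVX1 through a homeodomain, and MESP1, MESP2 and MSGN1 through a basic helix-loop-helix (bHLH) domain. In the mouse, EOMES and MESP1 mark early streak cells on the way to cardiovascular mesoderm and endoderm, GSC and LHX1 mark the anterior streak and organizer, T and EVX1 the posterior streak, and TBX6, MESP2 and MSGN1 the paraxial mesoderm that forms somites.

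The values are the authors' normalised expression signal per gene. Which measure they deposited is not stated, so an order between genes holds only if the values are per transcript length, as RSEM's usual output is. The sums were 426980 in hESC, 363396 in MES, then 306724 in HEP and 352604 in HPC, and the depth is unknown. The sort antigen APLNR was 0.57 in hESC, 344 in MES, then 250 in HEP and 15.6 in HPC, and CD34 was 0.13, 1.35, 43.6 and 18.4 in the same order. The CD31 gene PECAM1 reached 1.83 in HEP and 7.49 in HPC, and the CD43 gene SPN 24.4 in HPC. The label MES was checked on 5 markers of undifferentiated cells, whose summed value was 641 in MES, against 1861 in hESC, and on 10 endothelial markers, whose summed value was 66.1 in MES, against 33.3 in hESC. KDR, a VEGF receptor gene that early mesoderm also expresses, made up 62.4 of that sum in MES and was called higher there than in hESC (24.5), TEK was at 2.09 in MES and the other 8 were below 1, with EMCN and ERG listed at 0. Genes rich in G and C were relatively higher in HEP. Over the 6366 genes whose mean was at least 5, the Spearman rho of GC content with the log2 difference was 0.71 for HEP minus MES, as a description across genes that share these 2 libraries. The coding transcripts of the 10 factors ranged in GC content from 52.1% (EOMES) to 67.1% (GSC), against a median of 51.6% over those 6366 genes, so values with that trend removed are given beside the HEP results.

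RefSeq promoter windows on GRCh38.p14, 250 bases before to 50 bases after a start site, were found for 8 of the 10 factors, in 9 windows because T has more than one; MESP1 and LHX1 were not matched. Of 6 kinds of short motif searched on both strands, 3 belong to factors that act for the signals given in culture or known to induce the streak. These are the site of SMAD proteins, which carry activin, NODAL and BMP signals (searched as CAGACA), that of FOXH1, a partner of SMAD proteins in the activin and NODAL pathway (ATNCACA), and that of TCF/LEF factors, which act for WNT (CTTTGAA or CTTTGAT). The windows below are those of MIXL1, MESP2 and T, shown because each held a match to the FOXH1 or the TCF/LEF motif and because the 3 genes differed widely in level in MES; capitals mark every match to a searched motif.
MIXL1, GRCh38.p14 chr1:226223414-226223713, plus strand: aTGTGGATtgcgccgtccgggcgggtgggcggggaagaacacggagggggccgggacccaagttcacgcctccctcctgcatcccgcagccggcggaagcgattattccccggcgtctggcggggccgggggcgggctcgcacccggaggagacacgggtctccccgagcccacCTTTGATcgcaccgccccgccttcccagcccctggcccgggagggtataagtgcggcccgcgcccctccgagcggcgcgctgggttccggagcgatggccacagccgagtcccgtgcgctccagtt
MESP2, GRCh38.p14 chr15:89776082-89776381, plus strand: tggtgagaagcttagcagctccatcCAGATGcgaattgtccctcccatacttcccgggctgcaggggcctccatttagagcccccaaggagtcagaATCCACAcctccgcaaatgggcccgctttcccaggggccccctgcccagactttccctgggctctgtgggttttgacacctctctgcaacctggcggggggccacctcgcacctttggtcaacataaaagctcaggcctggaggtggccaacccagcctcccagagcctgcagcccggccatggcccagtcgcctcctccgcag
T, GRCh38.p14 chr6:166167802-166168101, minus strand: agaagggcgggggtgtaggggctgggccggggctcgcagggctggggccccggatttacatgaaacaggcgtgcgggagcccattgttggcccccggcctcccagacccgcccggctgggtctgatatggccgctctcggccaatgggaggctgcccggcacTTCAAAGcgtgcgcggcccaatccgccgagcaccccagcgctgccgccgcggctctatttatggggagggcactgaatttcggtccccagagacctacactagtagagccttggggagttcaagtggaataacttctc

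In the MIXL1 window the FOXH1 match, on the opposite strand, began at position -249 and the TCF/LEF match at -76, counted from the start site. The MESP2 window held a FOXH1 match at -154 and, at -225, a match to 1 of the E-box forms searched (CATATG or CAGATG), the kind of site that bHLH proteins bind. The T window held a TCF/LEF match at -88, on the opposite strand. FOXH1 matches stood in 2 of the 9 windows and in 10.7% of all 35116 windows of the table, and TCF/LEF matches in 3 of 9 (MIXL1, T and MSGN1) and in 6.86% of all. E-box matches stood in 3 of 9 windows (GSC, MESP2 and TBX6) and in 17.1% of all, and the SMAD motif CAGACA in 1 of 9 (EVX1) and in 16.9% of all. The T-box motif TCACACC, found in 3.45% of all windows, and the bicoid-type motif TAATCC, found in 6.36%, had no match in the 9. No match overlapped another. The letters are a description of these windows and not a binding measurement, and MSGN1, which has the TCF/LEF letters, stayed near 0 in every library (below 0.2).

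All 10 factors had their highest deposited value in MES, against 25.3% of the 17114 genes above 0 in any library. The factors were chosen with earlier results of these data known, so this contrast is a description only. For MSGN1 it rests on 0.13 in MES, against 0.04 in hESC. EVX1 was higher in HEP than in MES under 4 of the other scalings tried. In hESC the 10 values lay between 0 and 0.35 with a median of 0.04, and in MES between 0.13 and 65.9 with a median of 13.8. In HEP they lay between 0 and 4.21 with a median of 0.62, and in HPC between 0 and 1.13 with a median of 0.14. Their summed value per 100000 of each library's total was 0.246 in hESC, 66.3 in MES, then 4.03 in HEP and 0.712 in HPC. At 1 or more, 0 of the 10 were found in hESC, 9 in MES, 4 in HEP (EOMES, MESP1, LHX1 and EVX1) and 1 in HPC (MESP1). In bulk RNA, fewer cells with a transcript and less of it per cell cannot be told apart.

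**Figure D1:**
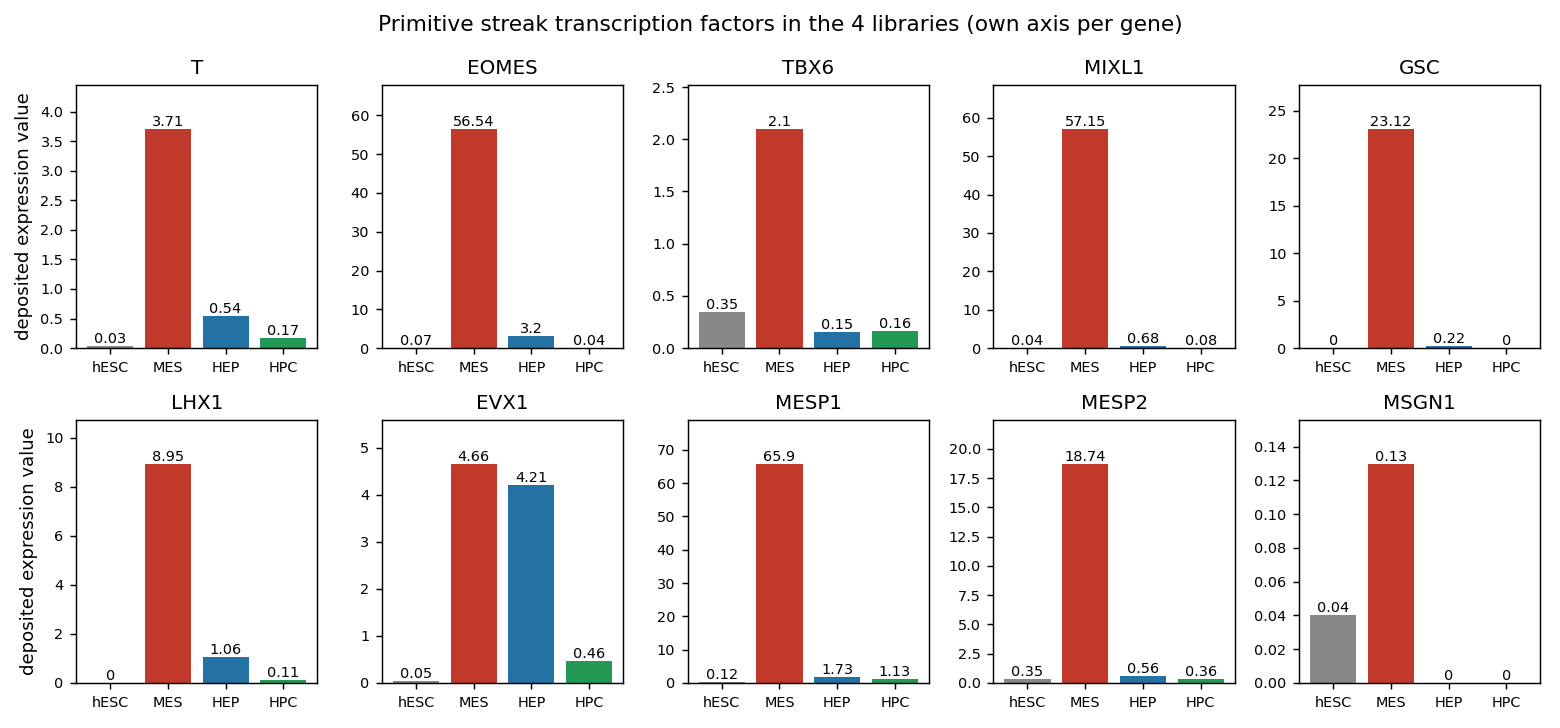
Deposited expression values of the 10 factors in hESC, MES, HEP and HPC, 1 bar per library (no replicates) and an own linear axis per gene. MES is the tallest bar in all 10 panels, from 0.13 for MSGN1 to 65.9 for MESP1, and EVX1 alone has a HEP bar (4.21) near its MES bar (4.66).

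Among the T-box factors, EOMES stood far above T. EOMES, which patterns early mesoderm and endoderm, had values of 0.07 in hESC, 56.5 in MES, then 3.20 in HEP and 0.04 in HPC. T, the founding T-box gene and the usual marker of the streak, had 0.03 in hESC, 3.71 in MES, then 0.54 in HEP and 0.17 in HPC. Both thus peaked in MES, but the EOMES value there was 15.2 times that of T, which ranked 7583rd among all genes in MES (EOMES ranked 859th). TBX6, which in the mouse commits cells to paraxial mesoderm, had 0.35 in hESC, 2.10 in MES, then 0.15 in HEP and 0.16 in HPC. TBX6 and MSGN1 were the factors whose next-highest library was hESC.

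Among the homeodomain factors, MIXL1 and GSC were the most sharply restricted to MES. MIXL1, a Mix-type factor of mesoderm and endoderm precursors, had 0.04 in hESC, 57.2 in MES, then 0.68 in HEP and 0.08 in HPC. GSC, the organizer gene goosecoid, was listed at 0 in hESC, reached 23.1 in MES and stood at 0.22 in HEP, and was again listed at 0 in HPC. LHX1, a LIM-domain factor needed for head organizer function in the mouse, was listed at 0 in hESC and had 8.95 in MES, then 1.06 in HEP and 0.11 in HPC. These 3 were high in MES and low in the other 3 libraries. EVX1, a posterior streak factor encoded beside the HOXA cluster, differed, with 0.05 in hESC, 4.66 in MES, then 4.21 in HEP and 0.46 in HPC. Its neighbour HOXA13 was at 0.11 or below in every library.

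Among the bHLH factors, MESP1 had the highest value of all 10 genes. MESP1, which marks the earliest cardiovascular mesoderm, had 0.12 in hESC, 65.9 in MES, then 1.73 in HEP and 1.13 in HPC. Its paralog MESP2, which acts in somite segmentation and is the next coding gene on chromosome 15 in RefSeq order, had 0.35 in hESC, 18.7 in MES, then 0.56 in HEP and 0.36 in HPC. The MESP1 value was 3.52 times that of MESP2 in MES, 3.09 times in HEP and 3.14 times in HPC, so the pair kept a like ratio in 3 libraries, though MESP2 was below 1 in HEP and HPC. MSGN1, a master factor of presomitic mesoderm in the mouse, was the exception among the 10, with 0.04 in hESC, 0.13 in MES and a listed 0 in HEP and HPC.

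Sequence shared between genes can split or misplace reads, so the transcripts were compared. No stretch of 50 bases in the GENCODE 29 coding transcripts of MESP1, T, EOMES, GSC or MSGN1 occurred in a transcript of any other gene on either strand, and MESP1 and MESP2 shared none. EVX1 shared 0.56% of its stretches with EVX2, LHX1 0.117% with LHX5, and MIXL1, MESP2 and TBX6 at most 0.198% with any other gene. On the opposite strand 14.3% of the EVX1 stretches lay in the antisense gene EVX1-AS and 9.32% of the LHX1 stretches in AC243773.1. The sources used here do not say whether counting used strand. Reads from the parts shared by EVX1 and EVX1-AS, and by LHX1 and AC243773.1, therefore cannot be told apart.

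The comparison of MES with hESC covers the step under activin A and BMP4. A gene was called higher or lower when its value reached 5 in the library where it was higher and its log2 difference of (value + 1) was 1 or more in size, a scale that understates the change of low genes. By this rule 6 of the 10 factors were higher in MES (EOMES, MIXL1, GSC, MESP1, MESP2 and LHX1) and 0 were lower, against 3.79% of all genes higher and 3.70% lower. These 6 are also the factors that reached 5 in any library, all of them through MES, so a call of higher was the only one open to them. The log2 differences were 5.90 for MESP1, 5.81 for MIXL1, 5.75 for EOMES, 4.59 for GSC, 3.87 for MESP2 and 3.31 for LHX1. EVX1 (2.43), T (2.19) and TBX6 (1.2) had differences above 1 but MES values below 5, and MSGN1 had 0.12. The median over all 10 was 3.59, against -0.02 over all genes. EVX1 also passed with the GC trend removed (2.58), where its MES value was 5.30. T and EVX1 passed with a common total that leaves out ribosomal protein, histone and globin genes (2.74 and 2.99). That scaling set each reduced sum to the mean of the full sums, which raised values in every library. T and EVX1 passed there because their scaled MES values reached 5 (5.96 and 7.49).

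The comparison of HEP with MES covers the step under VEGF and bFGF. The same 6 factors were lower in HEP and 0 of the 10 were higher, against 13.9% of all genes lower and 3.32% higher. None of the 10 reached 5 in HEP as deposited. The 6 passed the minimum through MES alone, so a call of lower was the only one open to them. The log2 differences were -5.11 for MIXL1, -4.62 for MESP1, -4.31 for GSC, -3.78 for EOMES, -3.66 for MESP2 and -2.27 for LHX1. T (-1.61), TBX6 (-1.43), MSGN1 (-0.18) and EVX1 (-0.12) did not pass. The median over the 10 was -2.97, against -0.11 over all genes. With the GC trend removed the 6 differences lay between -5.32 (MIXL1) and -2.49 (LHX1). The split of calls over all genes depended on scaling: higher calls were 50.6% of all calls in MES against hESC and 19.3% in HEP against MES, but under the 5 other scalings they ran from 55.7% (upper quartile) to 70.2% (common total) in MES against hESC, and from 28.9% (common total without ribosomal protein, histone and globin genes) to 50.2% (median-of-ratios) in HEP against MES. The calls of these 6 factors were the same under all 5 other scalings tried. Of 10 endothelial markers 7 were higher in HEP and 0 lower, with a summed value of 566 in HEP, against 66.1 in MES; their part in the lower values of the 6 factors was not tested.

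**Figure D2:**
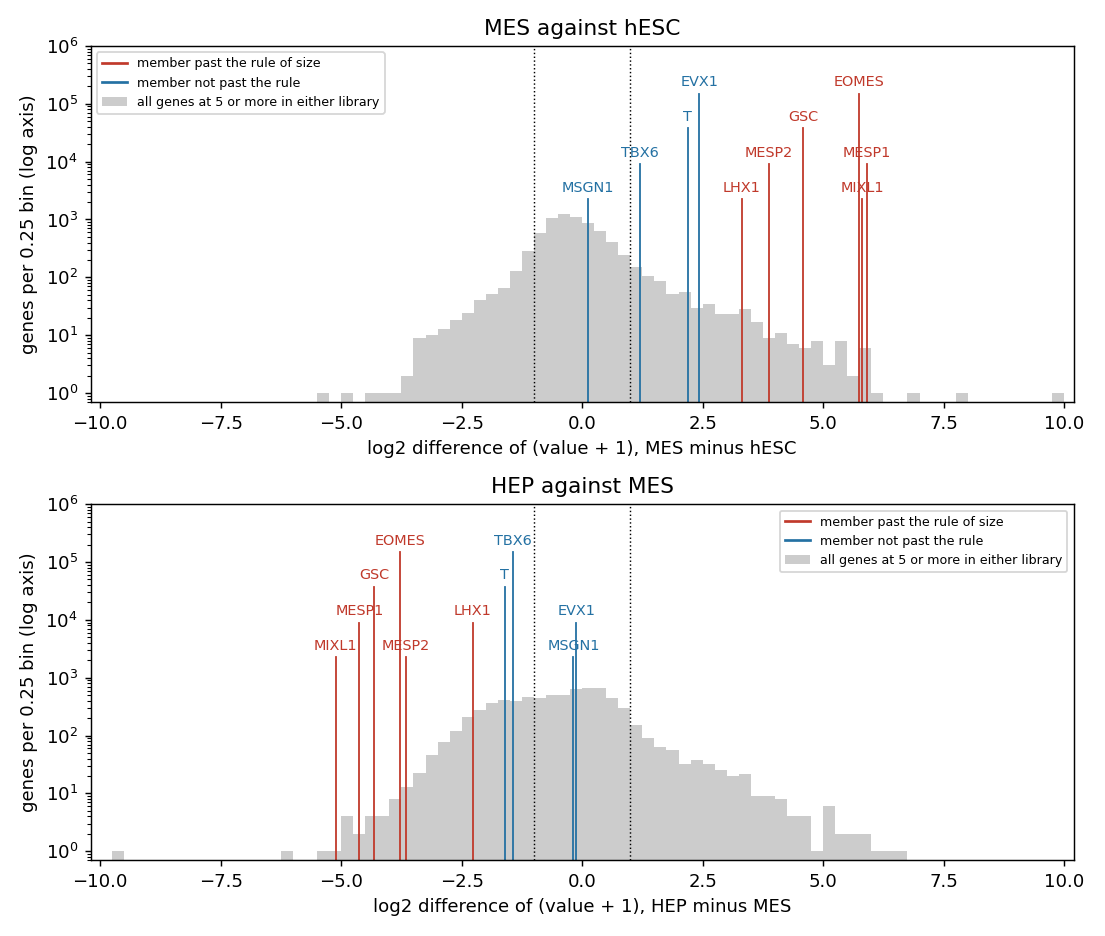
Histograms of the log2 difference of (value + 1) over genes at 5 or more in either library, MES minus hESC above and HEP minus MES below, with the number of genes on a log axis. Vertical lines mark the 10 factors (red where past the rule of size, blue where not) and dotted lines a difference of 1 in size; 6 factors lie between 3.31 and 5.90 in the upper panel and between -5.11 and -2.27 in the lower one.

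The factors differed in how much of their MES value was found in HEP. GSC had 0.952% of its MES value in HEP, MIXL1 1.19%, MESP1 2.63%, MESP2 2.99%, EOMES 5.66%, TBX6 7.14%, LHX1 11.8%, T 14.6% and EVX1 90.3%, while MSGN1 was listed at 0 in HEP. The HEP values behind these shares were 3.20 for EOMES, 4.21 for EVX1 and 1.73 or less for the others, so the order among low genes rests on small values. For the 663 other genes called higher in MES than in hESC, the median share was 46.8% (quartiles 21.8% and 101%), and 10.4% of them had 10% or less. With the GC trend removed EVX1 was at 62.9%, and T, LHX1 and EOMES at 11.6%, 9.42% and 6.27%, against a median of 60.5% over the 663 other genes, 7.39% of which had 10% or less. EVX1 was higher in HEP than in MES, by 0.08 to 0.35 on the log2 scale, with median-of-ratios scaling (5.15 against 3.84), upper quartile scaling (5.12 against 3.92), a common total (4.97 against 4.65) and a common total without ribosomal protein, histone and globin genes (7.99 against 7.49). Which of MES and HEP held more EVX1 was therefore not settled by these libraries, whereas its values in hESC and HPC were below 1 under every scaling tried.

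**Figure D3:**
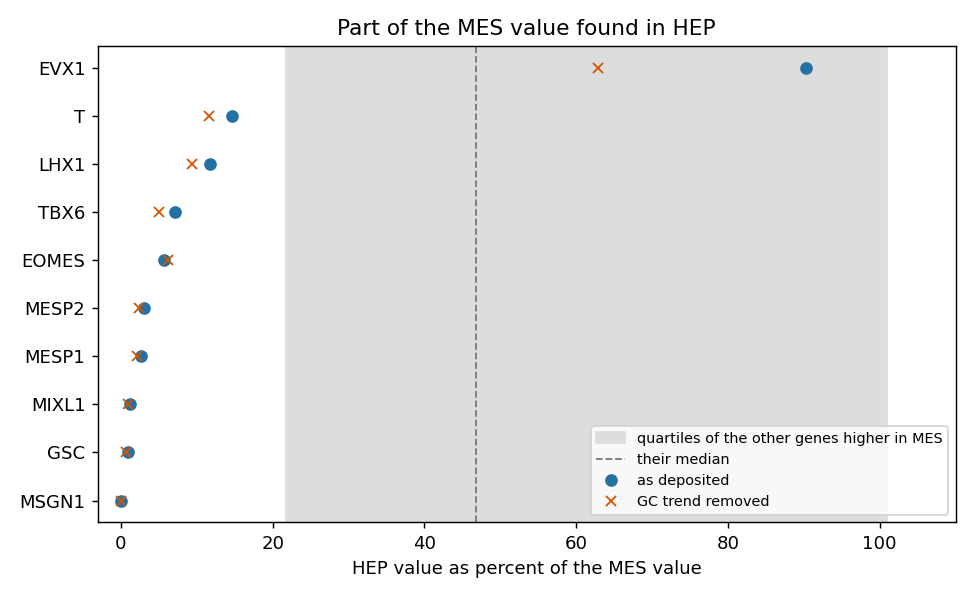
HEP value as a percent of the MES value for each of the 10 factors, as deposited (circles) and with the GC trend removed (crosses). The grey band spans the quartiles (21.8% to 101%) of the 663 other genes higher in MES than in hESC and the dashed line their median (46.8%), both as deposited (60.5% is the median with the GC trend removed); EVX1 (90.3% as deposited) lies inside the band and the other 9 lie left of it.

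By day 7 the factors were low or listed at 0. In HPC against HEP 0 of the 10 were called in either direction, against 3.01% of all genes higher and 3.57% lower; none of the 10 reached 5 in these 2 libraries. In value 8 of the 10 were lower in HPC than in HEP, among them EOMES at 0.04 in HPC, against 3.20 in HEP, and EVX1 at 0.46 in HPC, against 4.21 in HEP. TBX6 differed by 0.01 in value and MSGN1 was listed at 0 in both. With median-of-ratios or upper quartile scaling EVX1 passed the rule as lower in HPC (-1.99 and -1.98). With the common total that leaves out ribosomal protein, histone and globin genes EVX1 and EOMES did (-2.25 and -2.72). Their differences as deposited were already -1.84 and -2.01, and these scalings raised their HEP values past 5. In HPC against hESC 0 of the 10 were called, against 4.67% of all genes higher and 15.8% lower. None of the 10 reached 5 in hESC or HPC, so no call was open to them there. Higher calls were 22.9% of all calls there, and 33.6% (common total) to 50.3% (median-of-ratios) under the 5 other scalings. The largest difference in size was that of MESP1, at 1.13 in HPC, against 0.12 in hESC (log2 difference 0.93).

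The T-box family was read as a whole, since its genes share the DNA-binding domain. Among the 14 other T-box genes measured, 3 reached 5 in any library. TBX3, which acts in heart and limb development, was called higher in MES than in hESC (22.4 against 0.12) and stood at 15.8 in HEP and 7.66 in HPC. TBX20, a cardiac T-box factor, had 0.05 in hESC, 3.10 in MES, then 6.43 in HEP and 1.78 in HPC, and was called higher in HEP than in MES under 4 of the 5 other scalings though not as deposited (0.86). MGA, a partner of MAX, had 5.50 in hESC, 4.38 in MES, then 2.08 in HEP and 2.68 in HPC. EOMES thus led the family in MES and TBX3 led it in HEP and HPC. TBX3 was lower in HEP than in MES as deposited (-0.48) but not with median-of-ratios scaling (0.06) or upper quartile scaling (0.02). TBX1 and TBX10 were listed at 0 in all 4 libraries, and TBX5 was at 0.01 or below.

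**Figure D4:**
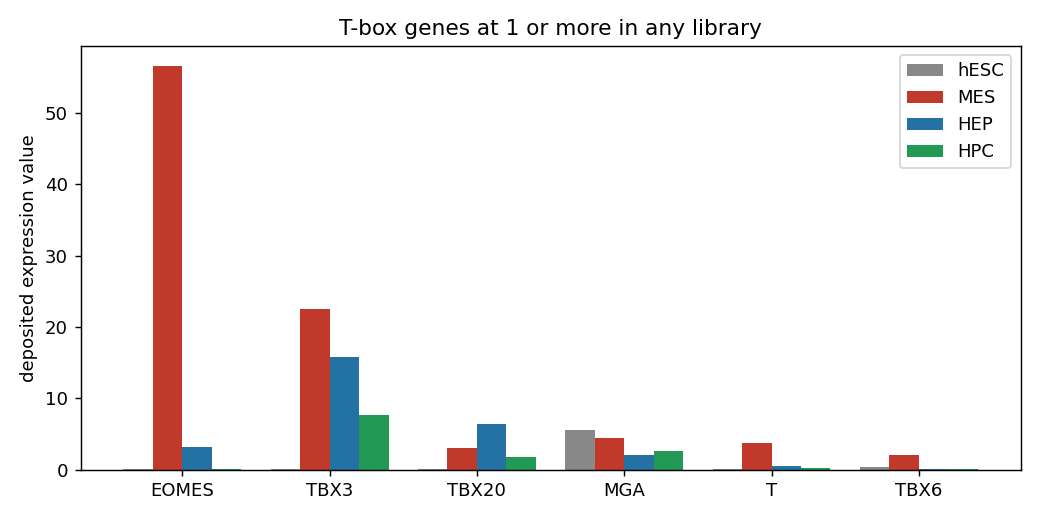
Deposited expression values of the 6 T-box genes at 1 or more in any library, with 1 bar per library (no replicates) in the order hESC, MES, HEP and HPC on a linear axis. EOMES is the tallest bar in MES (56.5), and TBX3 is the tallest in HEP (15.8) and HPC (7.66).

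The paired-like, LIM and bHLH relatives held few other genes at such levels. Among the paired-like homeobox genes, OTX2, an anterior factor, was higher in MES than in hESC. It had 10.1 in hESC, 24.98 in MES, then 2.53 in HEP and 0.08 in HPC, and was lower in HEP than in MES. Of 17 LIM homeobox relatives and cofactors 1 was higher in MES than in hESC and 0 lower, against 3.79% of all genes higher and 3.70% lower. It was the cofactor LDB2, at 27.0 in MES, against 8.58 in hESC. LDB1, the cofactor through which LIM factors such as LHX1 join larger complexes, varied less, at 7.24 in hESC, 6.93 in MES, then 9.03 in HEP and 12.7 in HPC. Of 8 other mesodermal bHLH genes 1 was higher in MES than in hESC and 1 lower, beside the same shares of all genes. The higher one was the lateral mesoderm factor HAND1, with 0.07 in hESC, 47.1 in MES, then 17.4 in HEP and 1.16 in HPC. The lower one was TCF15, at 1.09 in MES, against 5.64 in hESC. Of the 12 EVX and HOXA genes beside EVX1, 0 reached 1 in any library.

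The bHLH factors bind DNA with E proteins, and ID proteins block that pairing. Of 7 such genes 4 were higher in MES than in hESC and 0 lower, against 3.79% of all genes higher and 3.70% lower. ID1 had 116 in hESC, 356 in MES, then 523 in HEP and 100.2 in HPC, and ID2 had 7.96, 75.5, 64.9 and 28.3. Of the E protein genes, TCF4 was higher in MES than in hESC and lower in HEP than in MES, with 3.64 in hESC, 10.8 in MES, then 2.55 in HEP and 2.65 in HPC. TCF3 did not pass in either comparison and was at 19.5 in hESC, 16.5 in MES, then 13.8 in HEP and 8.25 in HPC. ID1 and ID2 thus had high values both in MES, where MESP1 and MESP2 were at 65.9 and 18.7, and in HEP, where MESP1 and MESP2 were at 1.73 and 0.56. Any part of the ID genes in the levels of MESP1 and MESP2 was not tested. In HEP against MES 3 of the 7 were lower and 0 higher as deposited, against 13.9% of all genes lower and 3.32% higher. With median-of-ratios scaling 2 of the 7 were lower and 2 higher.

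Several ligands that induce the streak, and their antagonists, were also highest in MES. Of 12 ligand and co-receptor genes 5 were higher in MES than in hESC and 0 lower, against 3.79% of all genes higher and 3.70% lower. The median difference of the 12 was 1.10, against -0.02 over all genes. Those 5 were BMP4 (102 in MES, against 0.93 in hESC), BMP2 (95.7 against 0.62), WNT3 (17.4 against 0.59), FGF8 (11.5 against 0.40) and FGF17 (7.71 against 0.07). NODAL had 3.69 in hESC, 7.36 in MES, then 0.33 in HEP and 0.04 in HPC, and its MES difference did not pass (0.83); it passed with a common total (1.01) and with the common total without ribosomal protein, histone and globin genes (1.08), which made the count 6 of 12. In HEP 7 of the 12 were lower than in MES and 0 higher, against 13.9% of all genes lower and 3.32% higher. The median there was -1.60, against -0.11 over all genes. With median-of-ratios or upper quartile scaling, which leave out WNT3, 6 were lower. WNT3A and FGF4 were at 0.11 or below in every library.

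Of 9 secreted antagonists of these ligands 5 were higher in MES than in hESC and 1 lower, against 3.79% of all genes higher and 3.70% lower. CER1, an inhibitor of NODAL, BMP and WNT, had 1.92 in hESC, 2761 in MES, then 2.22 in HEP and 1.03 in HPC, and DKK1, a WNT inhibitor, had 0.08, 40.2, 1.89 and 0.65. The WNT inhibitor SFRP1 ran the other way, at 71.1 in hESC and 3.24 in MES, with 12.4 in HEP and 9.81 in HPC. In HEP 5 of the 9 were lower than in MES and 1, SFRP1, was higher, against 13.9% of all genes lower and 3.32% higher.

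**Figure D5:**
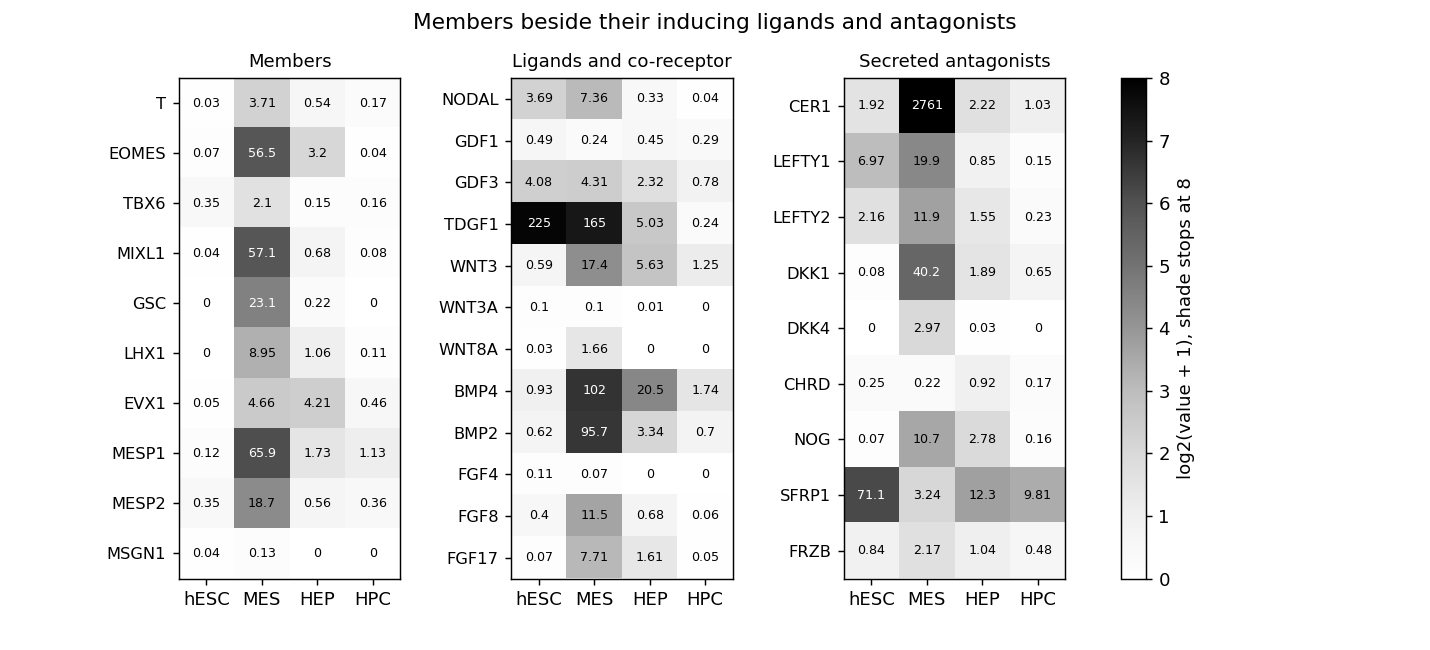
Deposited values (printed in the cells) of the 10 factors, the 12 streak-inducing ligand and co-receptor genes and the 9 secreted antagonists in the 4 libraries; the shade is log2(value + 1) and stops at 8. The MES column is the darkest for most genes in the 3 panels, CER1 has the highest value (2761), and TDGF1 and SFRP1 are highest in hESC.

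Of 13 genes of nuclear factors that carry these signals or are direct targets of them, 1 was higher in MES than in hESC, the WNT target SP5 (10.7 in MES, against 0.06 in hESC), and 0 were lower, against 3.79% of all genes higher. With the common total without ribosomal protein, histone and globin genes, which raised all values, 3 of 13 were higher. SMAD3 (1.39) and LEF1 (2.54) were added. Their differences as deposited were 1.10 and 2.03, with MES values below 5 (3.74 and 3.46). FOXH1 had 14.7 in hESC, 11.4 in MES, then 4.58 in HEP and 1.59 in HPC. Each of the 10 factors was at 0.35 or below in hESC, and any part of FOXH1 in their levels was not tested. FOXH1 was called lower in HEP than in MES as deposited (-1.15) and with the GC trend removed. It was not called under the other 4 scalings, where its difference lay between -1.0 and -0.65. SMAD4, the shared SMAD, had 11.5 in hESC, 9.52 in MES, then 4.69 in HEP and 5.34 in HPC. Its difference of HEP from MES was -0.89 as deposited but 0.60 with the GC trend removed, and that of HPC from hESC was -0.98 but 0.43, so neither direction held.

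Genes known to act beside the 10 factors in each direction of streak derivatives gave a mixed record in MES. Over all genes 3.79% were higher in MES than in hESC and 3.70% lower. Of 13 paraxial and presomitic genes 1 was higher than in hESC, the NOTCH ligand gene DLL3 (24.7 in MES, against 2.28 in hESC), and 2 were lower, LFNG (2.46 against 11.5) and TCF15 (1.09 against 5.64); TCF15 did not pass under 3 of the 5 other scalings. Of 10 posterior streak genes 6 were higher and 0 lower, led by CYP26A1, which breaks down retinoic acid (140 in MES, against 0.98 in hESC), and WNT5A (33.3 against 0.54). Of 15 lateral plate and cardiac genes 8 were higher and 0 lower, among them HAND1 and GATA6 (35.1 in MES, listed at 0 in hESC). Of 12 endoderm and axial genes 4 were higher and 0 lower: GATA6, SOX17 (25.1 against 0.19), GATA4 (13.4 against 0.08) and CXCR4 (6.24 against 0.80), the last not with the GC trend removed. GATA4 and GATA6 belong to the lateral plate and cardiac list as well, so they are counted in both lists. The defining endoderm gene FOXA2 stood at 0.23 in MES. Over 6 endoderm markers the summed value was 2794 in MES, against 3.49 in hESC, nearly all of it CER1; 0 of the 6 were at 0 in MES, and their part in the levels of the 10 factors was not tested. Of 12 pluripotency genes 9 were lower in MES and 0 higher, with POU5F1 at 568 in MES, against 1582 in hESC.

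The genes nearest in profile to each of the 6 factors at 5 or more were found by Euclidean distance between log2(value + 1) over the 4 libraries, a likeness over only 4 points. Nearest to EOMES were NPPB, DKK1 and PLXNA2 at 0.97, 0.98 and 1.04, and nearest to MESP1 were DKK1, BMP2 and CNKSR3 at 0.80, 1.06 and 1.08. MIXL1 lay nearest to ATP12A, MFAP4 and GRP at 0.50, 0.60 and 1.02, and GSC to ALPK2, SEMA6D and LGR5 at 0.42, 0.84 and 0.87. MESP2 lay nearest to SEMA6D, PENK and POSTN at 0.52, 0.67 and 0.70, and LHX1 to SAMD11, FGF17 and HS3ST1 at 0.40, 0.41 and 0.47. DKK1 was thus named for both EOMES and MESP1, and SEMA6D for both GSC and MESP2. Among the 16 genes named, ATP12A was at 0.29 in hESC, 44.4 in MES, then 0.78 in HEP and 0.20 in HPC, and ALPK2 at 0.05, 18.6, 0 and 0 in the same order; a peak in MES follows from how they were chosen. The names depended on the scale: with a pseudocount of 0.1 in place of 1, 8 of the 18 pairs were found again.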

How the data were processed

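Each library is 1 deposited table of 17634 genes. It holds a normalised expression signal, with 2 decimals, as the authors deposited it. BWA, Bowtie, RSEM and the build hg19 are named in the submitters' processing notes; versions, annotation, strand and the RSEM measure were not given in the sources used here. Per the labels' protocols, 2 ug of total RNA entered an Illumina TruSeq library kit. Depth is unknown, so no counting interval or floor is given. Left out were 4 rows that share 2 date-like names, leaving 17630 genes.

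Differences are log2(later + 1) minus log2(earlier + 1), with a rule of size (at least 1 in size, 5 or more in the higher library) and no test. Named were all 10 factors, the 3 nearest genes of each factor at 5 or more, and, of each fixed list, at most 4 genes by highest value; marker genes and other list members named were chosen after their values were seen. Factors and lists were chosen with earlier results of these data known. GC content is the median over GENCODE 29 coding transcripts (98.9% of genes matched by symbol or unique synonym); its trend in each library was the median deviation in 50 bins, averaged over 5. Alternatives were 2 pseudocounts, 2 minimums, a fold of 4 and 5 scalings. The rule was tested on simulated data. Promoter windows are RefSeq's on GRCh38.p14, a build other than hg19. A planned comparison of protein sequences was not run, and some list genes are not reported here. Python 3.11.15, numpy 2.4.6, pandas 2.3.3 and matplotlib 3.10.9 were used.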

Additional observations from a re-analysis of the deposited data

How the results depend on the processing

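No paired analysis was possible because each population is 1 library. Of 400 differences of single factors under 10 alternatives, 381 kept their side of the rule, 15 passed it only under the alternative and 4 (MESP2 and LHX1 at a minimum of 20, in both comparisons with MES) no longer passed; 0 changed sign while called. The 381 are no measure of robustness, because many were held at no call by the minimum. None of the factors reached 5 in hESC, HEP or HPC as deposited, and TBX6 and MSGN1 were at 2.10 or below in every library. The count of factors higher in MES than in hESC ran from 4 (minimum of 20) to 9 (no minimum), and that of factors lower in HEP than in MES from 4 to 8. Factors lower in HPC than in HEP numbered 2 with no minimum and with the common total without ribosomal protein, histone and globin genes (no gene with a mitochondrial genome name was in the tables), and 1 with median-of-ratios or upper quartile scaling, against 0 as deposited. The number highest in MES was 9 of 10 under 4 scalings, EVX1 being the exception. Of the 18 nearest-gene pairs 8 were found again with a pseudocount of 0.1, 9 with a pseudocount of 5 and 11 with the GC trend removed.

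Counts over all genes moved more. In MES against hESC they were 669 higher and 653 lower as deposited, 409 and 315 with a pseudocount of 5, 248 and 288 at a minimum of 20, and 274 and 121 at 4-fold. Higher calls were 1028 with no minimum and 1113 with the reduced total, and lower calls 360 with a common total and 383 with the GC trend removed. In HEP against MES they were 585 higher and 2448 lower as deposited, 288 and 831 at a minimum of 20, 219 and 797 at 4-fold, 1456 and 1445 with median-of-ratios and 1367 and 1506 with upper quartile scaling. Lower calls there were 1479 with a pseudocount of 5 and 874 with the GC trend removed, and higher calls 892 with a common total and 1062 with the reduced total. In HPC against HEP they were 530 and 630 as deposited, 291 and 378 with a pseudocount of 5, 229 and 264 at a minimum of 20 and 134 and 173 at 4-fold, with 805 higher with no minimum; higher calls were 45.7% of calls as deposited and 30.6% with a common total. In HPC against hESC they were 823 and 2778 as deposited, 332 and 1126 at a minimum of 20, 383 and 1088 at 4-fold, 1593 and 1573 with median-of-ratios and 1523 and 1658 with upper quartile scaling. Lower calls there were 1814 with a pseudocount of 5 and 1168 with the GC trend removed, and higher calls 1244 with no minimum and 1673 with the reduced total. Median-of-ratios scaling raised the log2 ratio to hESC by a median of 0.07 in MES, then 0.64 in HEP and 0.62 in HPC. Where an alternative sets a higher minimum or fold, its construction lowers the count. The reduced total by its construction raised values in every library, which made the minimum of 5 easier to reach. For the scalings the cause was otherwise not tested.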
